A study of Homo sapiens with 4 samples.

Results

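The abundant nuclear long noncoding RNAs and the noncoding small nucleolar RNA (snoRNA) host genes were compared between FLO-1LM and FLO-1 parental cells. The group held 10 genes of the 63677 listed in the count data, listed by symbol, with a rule that names no measured value but was written with earlier results of these data known. They were the nuclear RNAs *NEAT1* and *MALAT1* and the 8 host genes *GAS5*, *SNHG1*, *SNHG5*, *SNHG7*, *SNHG8*, *SNHG12*, *SNHG15* and *DANCR*. All 10 passed the filter on low counts and were tested among 17143 genes.

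The FLO-1 cell line was established from a human esophageal adenocarcinoma. FLO-1LM is a subline grown from a FLO-1 liver metastasis after liver metastases had been passaged repeatedly through immunodeficient NSG mice. It stands for 1 derivation only. RNAseq was performed on cultured cells of both lines, with no treatment named in the labels, with 2 libraries per line. Separate cultures for libraries of the same line are not stated in the sources used here. The p-values therefore rest on the spread between these libraries, which may be technical. The edgeR test also draws on the spread of other genes, so an interval can be narrower than the libraries of that gene alone would give.

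*NEAT1* RNA is the scaffold of paraspeckles, nuclear bodies that hold RNA-binding proteins and edited RNAs. *MALAT1* RNA accumulates in nuclear speckles, where splicing factors are stored. Host genes carry snoRNAs in their introns, and the snoRNAs guide 2′-O-methylation (box C/D class) or pseudouridylation (box H/ACA class) of ribosomal and spliceosomal RNA. The spliced host RNA that remains often encodes no protein. Several host transcripts begin with a 5′ terminal oligopyrimidine (TOP) tract, as ribosomal protein mRNAs do, and are cleared by nonsense-mediated decay.

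The start regions of the members were examined first, since the TOP tract is the sequence feature that links host genes with ribosomal protein genes. Sequences came from the RefSeq table for GRCh38.p14, which held a start for 8 of the 10 members, with 2 starts for *MALAT1*. *NEAT1* and *SNHG15* had no entry. Each line below gives 30 bases before and 30 bases from the annotated start, with the first 12 transcribed bases in capitals.
SNHG12 (chr1:28581844-28581903, reverse strand): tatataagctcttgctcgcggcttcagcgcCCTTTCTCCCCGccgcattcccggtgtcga
SNHG5 (chr6:85678704-85678763, reverse strand): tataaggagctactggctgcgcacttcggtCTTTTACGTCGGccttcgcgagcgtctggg
SNHG7 (chr9:136728155-136728214, reverse strand): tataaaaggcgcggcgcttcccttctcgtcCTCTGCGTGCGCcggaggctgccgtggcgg
SNHG1 (chr11:62855856-62855915, reverse strand): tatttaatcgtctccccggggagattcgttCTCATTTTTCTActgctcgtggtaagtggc
SNHG8 (chr4:118278732-118278791, forward strand): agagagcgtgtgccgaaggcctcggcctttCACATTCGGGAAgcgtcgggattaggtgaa
DANCR (chr4:52712364-52712423, forward strand): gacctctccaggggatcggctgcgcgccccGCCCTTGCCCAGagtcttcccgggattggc
GAS5 (chr1:173869016-173869075, reverse strand): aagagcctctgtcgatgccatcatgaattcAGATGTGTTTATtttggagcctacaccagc
MALAT1, upstream start (chr11:65497708-65497767, forward strand): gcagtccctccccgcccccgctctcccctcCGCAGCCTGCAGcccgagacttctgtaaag
MALAT1, downstream start (chr11:65499015-65499074, forward strand): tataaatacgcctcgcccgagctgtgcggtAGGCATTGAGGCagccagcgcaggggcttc

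A TOP-like start was scored, on the strand printed above, as a C followed without a break by at least 3 further C or T bases. *SNHG12*, *SNHG5* and *SNHG7* held one exactly at the annotated start, with runs of 11, 5 and 4 pyrimidines, which made 3 of the 7 host windows (42.9%). The same was found in 5.45% of 35116 start windows in the table and in 55.6% of 81 windows of cytosolic ribosomal protein genes. When the run could begin up to 5 bases to either side, 5 of the 7 host windows (71.4%) held one, beside 34.1% of all windows and 71.6% of the ribosomal protein windows. In *SNHG1* the run at the start was 3 bases long, and the annotated start of *GAS5* began with a purine. A match is a description of letters at an annotated start. The starts used in these cells were not measured, and the RefSeq start need not be the main one.

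By RefSeq, the 8 host genes held 30 snoRNA genes, 21 of box C/D and 9 of box H/ACA, while *NEAT1* and *MALAT1* held 0. *GAS5* held 11 and *SNHG1* held 8, almost all of box C/D. *SNHG12* held 4, *SNHG5* and *SNHG7* held 2 each, and *SNHG8*, *SNHG15* and *DANCR* held 1 each. Of the snoRNA genes that the GRCh37 annotation places inside a member, 3 had a row in the count data. Their sequences are printed with the 4 bases ATGA of box C and CTGA of box D in capitals for the C/D snoRNAs, and with the ACA box in capitals for the H/ACA snoRNA.
SNORD78, in GAS5 (GRCh37, chr1:173834760-173834824, reverse strand): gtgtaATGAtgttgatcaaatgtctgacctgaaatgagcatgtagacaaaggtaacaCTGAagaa
SNORD99, in SNHG12 (GRCh37, chr1:28905261-28905334, reverse strand): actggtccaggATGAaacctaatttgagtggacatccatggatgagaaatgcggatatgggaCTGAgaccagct
SNORA26, in DANCR (GRCh37, chr4:53579416-53579537, forward strand): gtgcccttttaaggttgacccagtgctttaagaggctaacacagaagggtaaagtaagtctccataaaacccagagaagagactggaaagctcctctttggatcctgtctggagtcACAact

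Total counts ran from 19060310 to 25920336 per library, and mitochondrial genes took 7.93% to 9.96% of them. The epithelial markers *KRT8*, *KRT18*, *KRT19* and *CDH1* were counted in every library and all 4 were called lower in FLO-1LM, with a summed level for the 5 epithelial markers of 482 to 496 CPM in FLO-1LM and 845 to 858 in parental cells. *EPCAM* had 3 to 12 counts per library. Leukocyte, endothelial and hepatocyte markers each summed to at most 0.943 CPM, with *PTPRC*, *ALB* and *TTR* at 0. The endothelial sum lacks *PECAM1*, which was not matched by symbol. The fibroblast markers summed to 9.70 to 12.8 CPM, almost all of it *COL1A1* with 186 to 284 counts per library. *COL1A2* had at most 1 count per library and *DCN* was at 0. The part of these differences in the values below was not tested. CPM is the count of a gene per 1000000 counts of its library, after TMM scaling, which corrects for differences in RNA composition. A value of 3 counts corresponded to 0.117 to 0.157 CPM, and folds of genes with fewer counts in a library rest on few reads.

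None of the 10 members was called differentially expressed between FLO-1LM and parental cells at an adjusted p of 0.05 by the edgeR quasi-likelihood test with Benjamini-Hochberg adjustment over all genes. Across all genes tested 2.23% were called, 0.402% higher and 1.83% lower in FLO-1LM, so that a count of 0 in 10 lies near the background. At an unadjusted p below 0.05 the edgeR count was also 0 of 10, beside 12.4% of all genes tested, and it was 1 of 10 both in edgeR without the low-count filter and in limma voom without TMM. DESeq2 and limma voom called 0 members after adjustment. The smallest adjusted p among the members was 0.456, for *SNHG1*. Of the 10 members, 4 had a higher and 6 a lower fitted level in FLO-1LM, and their median log2 fold change was −0.04, beside 0.00 for all genes tested (lower quartile −0.14, upper quartile 0.13). All log2 fold changes are FLO-1LM against parental.

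Among 1899 tested genes annotated as lncRNA, 6.58% were called, 125 lower and 0 higher in FLO-1LM, and their median log2 fold change was −0.13. The count of 0 in 10 members is near this share as well. These genes had a median of 28 counts, compared with 427 over all genes tested, while the member with the fewest counts, *DANCR*, had 138 to 237. All 10 members thus had more counts than the median lncRNA gene tested.

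*NEAT1* (ENSG00000245532) lies on the forward strand of chr11:65190245-65213011 of GRCh37, and its canonical transcript is a single exon of 22743 bases. It reached 973 and 1279 CPM in FLO-1LM replicates 1 and 2 and 1279 and 1228 CPM in parental replicates 1 and 2. FLO-1LM replicate 1 lay below the other 3 libraries, while FLO-1LM replicate 2 lay within the parental range, so the lines overlapped. The means were 1126 ± 217 CPM in FLO-1LM and 1254 ± 36.3 in parental cells (SD, n = 2 each). The log2 fold change was −0.15 (SE 0.09, 95% interval −0.35 to 0.04), with an adjusted p of 0.547 by edgeR. This interval spans a fold of 0.786 to 1.03. The size of the difference depended on which FLO-1LM library was kept. Without FLO-1LM replicate 2 the log2 fold change was −0.37, and without FLO-1LM replicate 1 it was 0.03.

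*MALAT1* (ENSG00000251562) lies downstream of *NEAT1* on the same strand, at chr11:65265111-65275544, and its annotated transcript is a single exon of 10434 bases. Its levels were 3166 and 3562 CPM in FLO-1LM and 3727 and 3139 CPM in parental cells. Both parental values lay outside the FLO-1LM range, 1 above it and 1 below it, so the spread within parental cells exceeded the difference between the lines. The means were 3364 ± 280 and 3433 ± 416 CPM (SD, n = 2 each), and the log2 fold change was −0.03 (SE 0.08, 95% interval −0.19 to 0.13, adjusted p = 0.934 by edgeR). A change of *MALAT1* beyond a fold of 0.875 to 1.10 lay outside this interval. In bulk RNA, fewer cells that express a gene and less RNA per cell cannot be told apart, which applies to each level given here.

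Together *NEAT1* and *MALAT1* took 0.407% and 0.481% of all counts in FLO-1LM and 0.507% and 0.439% in parental cells. There were 0.307 and 0.359 *NEAT1* counts per *MALAT1* count in FLO-1LM and 0.343 and 0.391 in parental cells. These ratios overlapped between the lines. *MALAT1* and the long isoform of *NEAT1* end without a poly(A) tail, and whether the libraries were made from polyadenylated or ribosome-depleted RNA is not given in the sources used here.

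**Figure D1:**
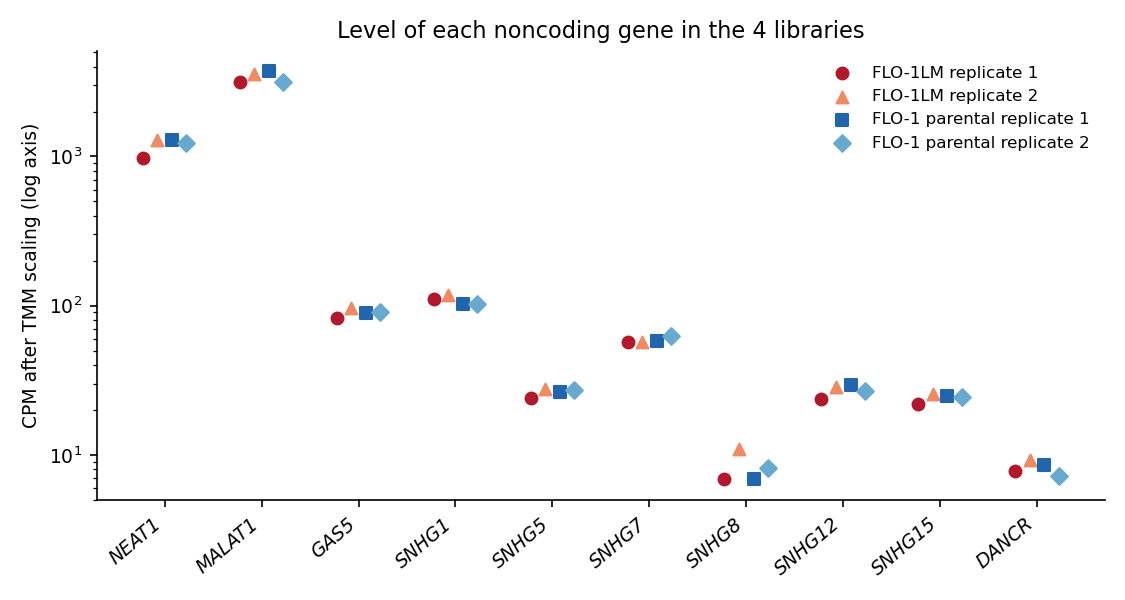
Level of each member in CPM on a log axis, 1 point per library, with circles and triangles for FLO-1LM replicates 1 and 2 and squares and diamonds for FLO-1 parental replicates 1 and 2. The lines overlap for 8 of the 10 members, all except *SNHG1* and *SNHG7*.

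Among the host genes, *SNHG1* and *GAS5* had the most counts. *SNHG1* (ENSG00000255717, reverse strand of chr11:62619450-62623425) hosts SNORD22 and SNORD25 to SNORD31, all of box C/D. Its levels were 111 and 118 CPM in FLO-1LM and 103 and 103 CPM in parental cells, so both FLO-1LM libraries lay above both parental libraries. The means were 114 ± 4.66 and 103 ± 0.351 CPM (SD, n = 2 each). The log2 fold change was 0.15 (SE 0.08, 95% interval −0.01 to 0.32), with an unadjusted p of 0.0684 and an adjusted p of 0.456 by edgeR. *SNHG1* was not called, and its log2 fold change stayed between 0.11 and 0.19 when any 1 library was left out.

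*GAS5* (ENSG00000234741, reverse strand of chr1:173827697-173838020) was named for its accumulation in growth-arrested cells, and its RNA can bind the glucocorticoid receptor. It reached 82.7 and 96.5 CPM in FLO-1LM and 89.1 and 90.0 CPM in parental cells. The parental libraries lay inside the range of the FLO-1LM libraries, with means of 89.6 ± 9.79 and 89.5 ± 0.685 CPM (SD, n = 2 each). Its log2 fold change was 0.00 (SE 0.09, 95% interval −0.18 to 0.19, adjusted p = 0.996 by edgeR), and the sign turned with the scaling of library size. There were 0.744 and 0.820 *GAS5* counts per *SNHG1* count in FLO-1LM and 0.868 and 0.873 in parental cells. This ratio was lower in both FLO-1LM libraries, although neither gene was called, and the ratio itself was not tested.

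*SNHG7* (ENSG00000233016, reverse strand of chr9:139615818-139622636), host of SNORA17A and SNORA17B, was the other member without overlap. Its levels were 57.0 and 57.2 CPM in FLO-1LM and 57.8 and 62.9 CPM in parental cells. The gap between the nearest libraries was smaller than the gap between the parental libraries. The log2 fold change was −0.08 (SE 0.09, 95% interval −0.27 to 0.11, adjusted p = 0.812 by edgeR). In all, 2 of 10 members had lines that did not overlap, compared with 42.6% of all genes tested.

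The hosts of intermediate count overlapped between the lines. *SNHG12* (ENSG00000197989, reverse strand of chr1:28905050-28909644), host of 3 H/ACA snoRNAs and SNORD99, had 23.6 and 28.6 CPM in FLO-1LM and 29.4 and 26.8 CPM in parental cells (log2 fold change −0.10, SE 0.13). *SNHG5* (ENSG00000203875, reverse strand of chr6:86360209-86388650), host of SNORD50A and SNORD50B, had 24.1 and 27.7 CPM in FLO-1LM and 26.4 and 27.4 CPM in parental cells (log2 fold change −0.05, SE 0.12). *SNHG15* (ENSG00000232956, reverse strand of chr7:45022618-45026560), host of SNORA9, had 21.8 and 25.8 CPM in FLO-1LM and 25.0 and 24.5 CPM in parental cells (log2 fold change −0.06, SE 0.13). In each of the 3 genes FLO-1LM replicate 1 was the lowest library, and FLO-1LM replicate 2 lay within or above the parental range. Their adjusted p-values by edgeR were 0.832, 0.923 and 0.918.

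*DANCR* and *SNHG8* were counted least and had the widest errors. *DANCR* (ENSG00000226950, forward strand of chr4:53578492-53589790) was described as a keeper of the undifferentiated state of epidermal progenitors and hosts SNORA26. It had 7.85 and 9.21 CPM in FLO-1LM and 8.53 and 7.20 CPM in parental cells, with a log2 fold change of 0.12 (SE 0.20, 95% interval −0.31 to 0.54, adjusted p = 0.888 by edgeR). *SNHG8* (ENSG00000269893, forward strand of chr4:119199858-119206471), host of SNORA24, had 6.91 and 10.9 CPM in FLO-1LM and 6.85 and 8.19 CPM in parental cells. FLO-1LM replicate 2 was the highest *SNHG8* library, and FLO-1LM replicate 1 lay between the parental libraries. The log2 fold change of 0.25 was the largest of the 10 in size, with an SE of 0.23, a 95% interval of −0.23 to 0.73 and an adjusted p of 0.745 by edgeR. That interval spans a fold of 0.855 to 1.65. *SNHG8* had 154 and 280 counts in the FLO-1LM libraries.

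**Figure D2:**
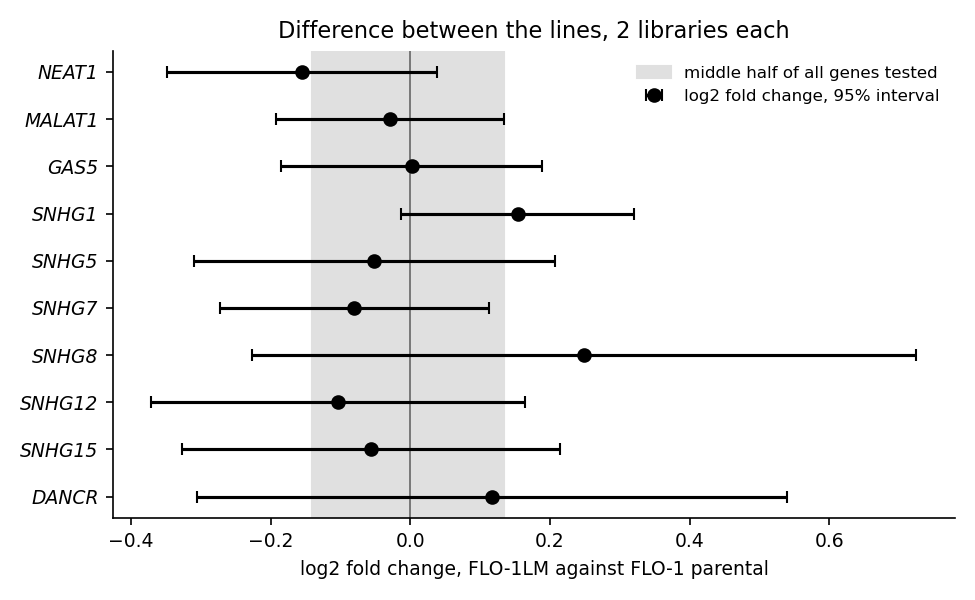
Log2 fold change of each member, FLO-1LM against parental, as a point with its 95% interval from the edgeR fit, beside a band from the lower to the upper quartile of all 17143 genes tested. The interval of every member includes 0, from *NEAT1* (−0.35 to 0.04) to *SNHG8* (−0.23 to 0.73).

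The 8 host genes were also summed. They amounted to 335 and 374 CPM in FLO-1LM and 346 and 350 CPM in parental cells, or 354 ± 27.3 and 348 ± 3.18 CPM (SD, n = 2 each). The parental sums lay inside the FLO-1LM range. Hosts took 0.0330% to 0.0371% of all counts.

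Levels were compared between members per kilobase of exon. With all annotated exons of a gene joined, parental *MALAT1* had the highest level at 329 ± 39.8 CPM per kb, followed by *NEAT1* (55.1 ± 1.59), *SNHG1* (25.9 ± 0.0882), *GAS5* (18.2 ± 0.139) and *SNHG7* (12.3 ± 0.731). Then came *SNHG12* (6.58 ± 0.430), *SNHG15* (6.28 ± 0.0866), *SNHG5* (2.13 ± 0.0604), *SNHG8* (1.14 ± 0.143) and *DANCR* (0.773 ± 0.0925), each in CPM per kb as the mean and SD of 2 libraries. The order in FLO-1LM was the same, from 322 ± 26.9 for *MALAT1* to 0.838 ± 0.0938 for *DANCR*. The neighbors *SNHG12* and *SNHG15* did not differ beyond their spread in either line. In FLO-1LM *SNHG8* (1.35 ± 0.424) lay above *DANCR* by little more than the SD of *SNHG8*.

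This order rested on the length used. Per kilobase of the canonical spliced transcript, which has 768 bases for *GAS5* and 1162 for *SNHG1*, *GAS5* reached 117 CPM per kb in both lines and *SNHG1* 88.5 in parental cells and 98.5 in FLO-1LM. Both then lay above *NEAT1*, with 55.1 and 49.5 CPM per kb, while *MALAT1* remained the highest. *SNHG5* (20.4 and 19.7) then lay above *SNHG12* (14.99 and 13.95) and *SNHG15* (8.26 and 7.93), and *DANCR* (1.99 and 2.15) above *SNHG8* (1.22 and 1.44), each in parental and FLO-1LM cells. The annotation used for lengths is later than the one on which the reads were counted, and its gene bounds can be longer.

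Libraries of the same line were compared next. All 10 members were higher in FLO-1LM replicate 2 than in FLO-1LM replicate 1, with a median log2 difference of 0.23 and a range from 0.01 for *SNHG7* to 0.65 for *SNHG8*. Over 16940 tested genes with a count in each of the 4 libraries, 49.7% were higher in replicate 2, with a median of 0.00 (quartiles −0.17 and 0.18). Of tested lncRNA genes 56.2% were higher. Between the parental libraries 5 of 10 members were higher in replicate 2, with a median log2 difference of −0.01 and a range from −0.25 for *MALAT1* to 0.26 for *SNHG8*. The count of 10 in FLO-1LM was the same with RLE factors, library totals and DESeq2 size factors.

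Replicate 2 was also the deeper FLO-1LM library, with 25920336 counts against 22646123, and these differences were taken after scaling for library size. The labels name no batch, date or culture that separates the FLO-1LM libraries, and what set them apart was not tested. The difference of *NEAT1* between the FLO-1LM libraries (0.39) was larger than its difference between the lines (−0.15), and the same held in size for *MALAT1* (0.17 and −0.03). For *SNHG1* it was smaller, 0.08 compared with 0.15.

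**Figure D3:**
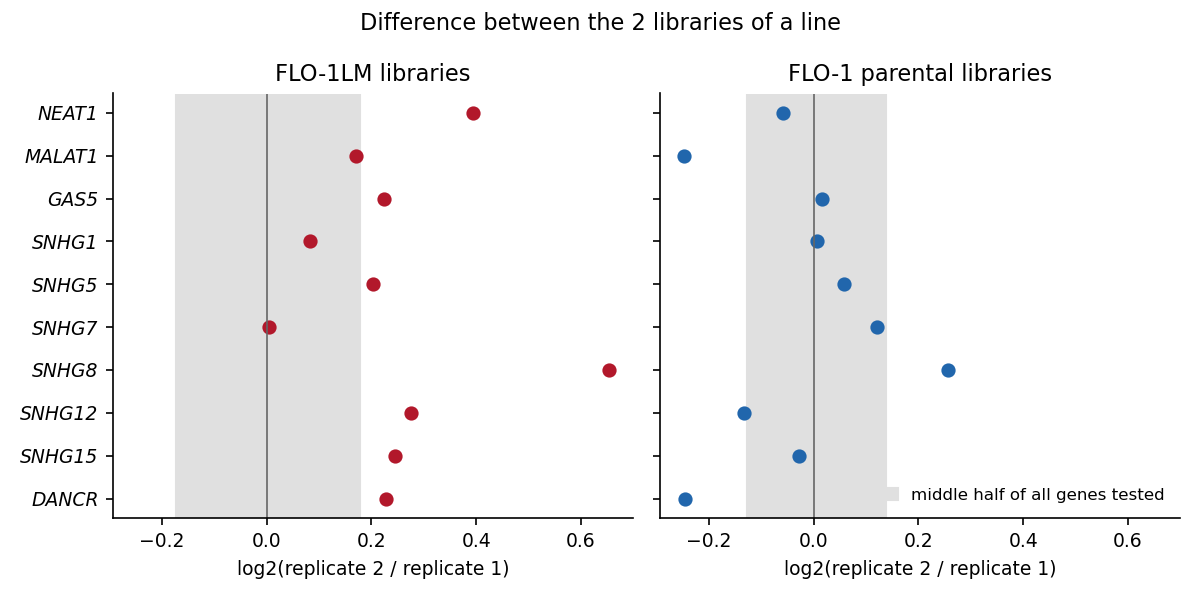
Log2 difference of replicate 2 from replicate 1 of each member, within FLO-1LM on the left and within FLO-1 parental on the right, with a band from the lower to the upper quartile of all genes tested. All 10 members lie above 0 in FLO-1LM, from 0.01 to 0.65, and 5 of 10 do in parental cells.

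Leaving out 1 library moved most members across 0. Without FLO-1LM replicate 1, 9 of 10 members had a higher fitted level in FLO-1LM, with a median log2 fold change of 0.06, and without FLO-1LM replicate 2 only *SNHG1* did, with a median of −0.12 over the 10. Without either parental replicate 4 of 10 were higher, with medians of −0.02. *SNHG1* and *SNHG7* kept their direction in all 4 of these fits and *NEAT1* was the only member called in any, in the fit without FLO-1LM replicate 2.

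**Figure D4:**
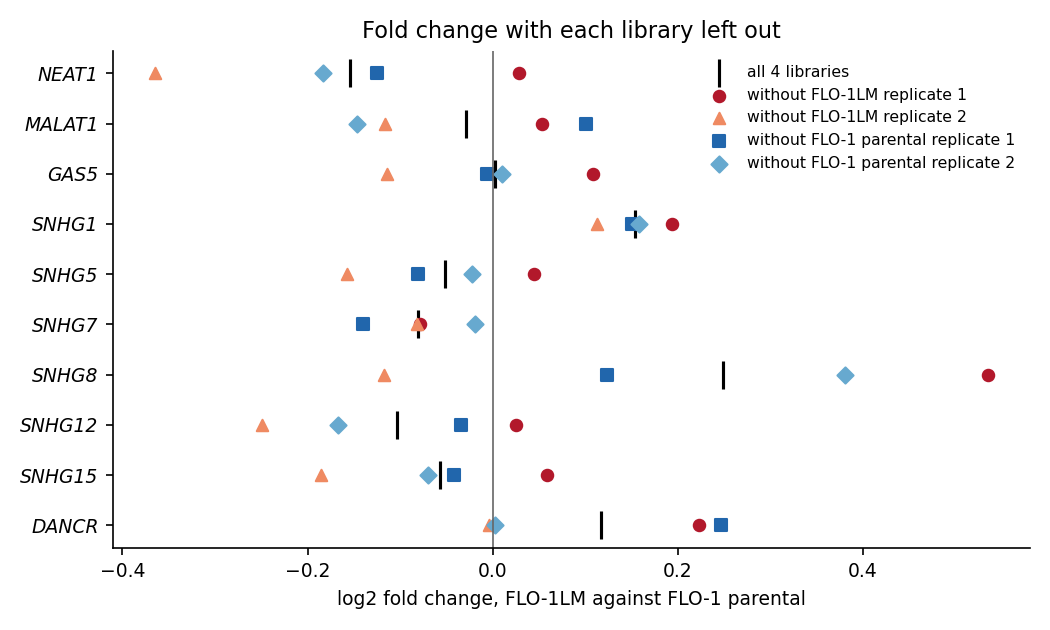
Log2 fold change of each member, FLO-1LM against parental, with all 4 libraries and with each library left out in turn. *NEAT1* runs from −0.37 without FLO-1LM replicate 2 to 0.03 without FLO-1LM replicate 1, and *SNHG1* stays between 0.11 and 0.19.

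The gene opposite each member was examined because reads from overlapping genes cannot be separated without knowledge of strand. The library kit keeps the strand, but the strand setting used in counting is not given in the sources used here. *NEAT1*, *SNHG5* and *SNHG15* had no overlapping gene on the opposite strand in the annotation. In all, 14 genes opposite, inside or beside a member had a row in the count data, 8 of them passed the filter, and 0 of the 8 were called by edgeR, of which *ZBTB37* alone had an interval that excluded 0 before adjustment.

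Opposite *MALAT1* lies ENSG00000270117, an unnamed lncRNA gene of 610 bases on the reverse strand of chr11:65265479-65266088. It had 1 and 2 counts in FLO-1LM and 7 and 9 in parental cells, which was at most 0.0150% of the *MALAT1* counts of the same library. It fell below the filter and was not tested. Per *MALAT1* count, the FLO-1LM to parental ratio was 0.165 (3 against 16 counts, exact 95% binomial interval 0.0307 to 0.575). This interval covers counting error only. All 610 bases of ENSG00000270117 lie within the *MALAT1* exon. Whether these counts came from ENSG00000270117 or from *MALAT1* reads assigned to the wrong strand was not tested. Tested lncRNA genes as a set had a median log2 fold change of −0.13 and a lower quartile of −0.74. Genes with a count numbered 21152 and 21304 in FLO-1LM and 23104 and 22908 in parental cells. Whether ENSG00000270117 departs from these shifts was not tested. *TALAM1*, the other transcript annotated opposite *MALAT1*, was not analysed here.

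Opposite *GAS5*, *ZBTB37*, a zinc finger gene that starts 800 bases away from the *GAS5* start, had 21.9 and 21.3 CPM in FLO-1LM and 29.6 and 23.9 CPM in parental cells. Both FLO-1LM libraries lay below both parental libraries for *ZBTB37*, with a log2 fold change of −0.31 (SE 0.13) and an adjusted p of 0.340 by edgeR. The antisense gene *GAS5-AS1* had 8 and 9 counts in FLO-1LM and 3 and 13 in parental cells and was not tested.

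*SNHG1* shares no bases with an opposite gene, but *SLC3A2*, which encodes the CD98 heavy chain of amino acid transporters, starts 51 bases away in the other direction. *SLC3A2* had 163 and 203 CPM in FLO-1LM and 183 and 215 CPM in parental cells, which overlapped, and its log2 fold change of −0.12 (SE 0.10, adjusted p = 0.695 by edgeR) was opposite in sign to that of *SNHG1*. Without FLO-1LM replicate 2 the log2 fold change of *SLC3A2* was −0.29, and without FLO-1LM replicate 1 it was 0.03. Opposite *SNHG7* lies *DIPK1B*, with 1482 bases of shared exon, and it had 49.7 and 46.6 CPM in FLO-1LM and 38.8 and 44.3 CPM in parental cells. Both FLO-1LM libraries were the higher for *DIPK1B*, whereas they were the lower for *SNHG7*, and the log2 fold change was 0.22 (SE 0.10, adjusted p = 0.405 by edgeR).

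The remaining opposite genes gave few shared bases or few counts. *TRNAU1AP*, a gene for selenocysteine incorporation, shares 8 bases with *SNHG12* and had 35.1 and 39.2 CPM in FLO-1LM and 39.1 and 41.3 CPM in parental cells (log2 fold change −0.11, SE 0.11, adjusted p = 0.760 by edgeR). *PRSS12*, which encodes the protease neurotrypsin, shares 2487 exon bases with *SNHG8* and had 6 to 20 counts per library, 3.97% to 7.64% of those of *SNHG8*. Opposite *DANCR*, *ERVMER34-1* had 8 to 14 counts per library and the pseudogene ENSG00000248375 had at most 1.

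Reads were few on *SNORD78*, *SNORD99* and *SNORA26*, the snoRNA genes inside hosts that had a row in the count data. The other snoRNA genes listed for the hosts were not examined. *SNORD78*, whose sequence is printed above, had 1 and 18 counts in FLO-1LM and 23 and 6 in parental cells (log2 fold change −0.84, SE 0.90, adjusted p = 0.799 by edgeR). *SNORD99* had 12 and 25 counts in FLO-1LM and 27 and 16 in parental cells (log2 fold change −0.44, SE 0.61, adjusted p = 0.852 by edgeR). *SNORA26* had 11 and 11 counts in FLO-1LM and 0 and 5 in parental cells and was not tested, and the microRNA gene *MIR4449* inside *DANCR* had at most 1. In gene counts, reads from a snoRNA cannot be told apart from reads of host RNA that crosses it.

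The genes around these RNAs were described by lists. Among the other snoRNA host lncRNAs 14 of 17 were tested and 0 were called, with a median log2 fold change of 0.07 from −0.25 for *SNHG6* to 1.42 for *SNHG18*, which had 2 to 15 counts per library. *SNHG6* had 75.7 and 77.7 CPM in FLO-1LM and 87.8 and 94.7 CPM in parental cells, without overlap, and its adjusted p by edgeR was 0.175 (unadjusted p 0.00826). *SNHG3* had 96.0 ± 12.8 and 107 ± 2.31 CPM (log2 fold change −0.15), and *SNHG16* had 64.8 ± 5.91 and 62.1 ± 0.474 CPM (0.06), each SD over 2 libraries.

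Among other well-known lncRNAs 19 of 24 were tested, with a median log2 fold change of −0.11, and 1 was called. This was *H19*, an imprinted lncRNA expressed in fetal tissue, which had 32.2 and 30.5 CPM in FLO-1LM and 39.6 and 51.2 CPM in parental cells. It was lower in both FLO-1LM libraries, with a log2 fold change of −0.53 (SE 0.12, adjusted p = 0.0225 by edgeR). Without parental replicate 2 the log2 fold change was −0.34 and the call was lost. The log2 fold change was −0.71 without parental replicate 1, −0.57 without FLO-1LM replicate 1 and −0.49 without FLO-1LM replicate 2. *NORAD*, which binds PUMILIO proteins, had 300 ± 12.5 and 320 ± 12.8 CPM (log2 fold change −0.10), and *TUG1* had 245 ± 11.6 and 232 ± 21.5 CPM (0.08), neither called.

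The protein partners of the members showed 0 calls by edgeR with all 4 libraries. All 13 paraspeckle protein genes were tested, with a median log2 fold change of 0.00, and *SFPQ*, a protein that *NEAT1* needs to form paraspeckles, had 494 ± 3.94 CPM in FLO-1LM and 536 ± 8.86 in parental cells (−0.12, SE 0.07, adjusted p = 0.530 by edgeR). *HNRNPK* (log2 fold change −0.05) was not called either. Of 16 speckle and splicing factor genes the median was 0.00, with *SON* at −0.12, *SRRM2* at 0.05 and *SRSF3* at 0.03.

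For the 13 snoRNP protein genes the median log2 fold change was 0.05. *FBL*, the box C/D methyltransferase fibrillarin, had 529 ± 74.7 CPM in FLO-1LM and 469 ± 35.5 in parental cells (0.17, SE 0.09, adjusted p = 0.439 by edgeR). Without FLO-1LM replicate 1 the log2 fold change of *FBL* was 0.31, and without FLO-1LM replicate 2 it was 0.02. *DKC1*, the pseudouridine synthase dyskerin, was at 0.05 and *SNU13* at 0.03. The 16 tested genes of nonsense-mediated decay had a median of −0.01, with the kinase gene *SMG1* at −0.12, *SMG5* at 0.06 and *EIF4A3*, an exon junction complex gene, at 0.02.

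Of the 31 protein-coding snoRNA host and TOP genes 22 had a higher fitted level in FLO-1LM, compared with 8639 of all 17143 genes tested. None of the 31 was called, and their median was 0.07. *EEF2*, the elongation factor gene, had 2247 ± 64.2 CPM in FLO-1LM and 2020 ± 141 in parental cells (0.15, SE 0.07, adjusted p = 0.344 by edgeR), *EEF1A1* was at 0.08 and *HSPA8* at 0.10. Within FLO-1LM, 20 of these 31 were higher in replicate 2, as were 9 of 14 other snoRNA host lncRNAs and 16 of 19 other lncRNAs. Of the protein partners the counts were 4 of 13 for paraspeckle, 8 of 16 for speckle, 9 of 13 for snoRNP and 8 of 16 for decay factor genes.

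**Figure D5:**
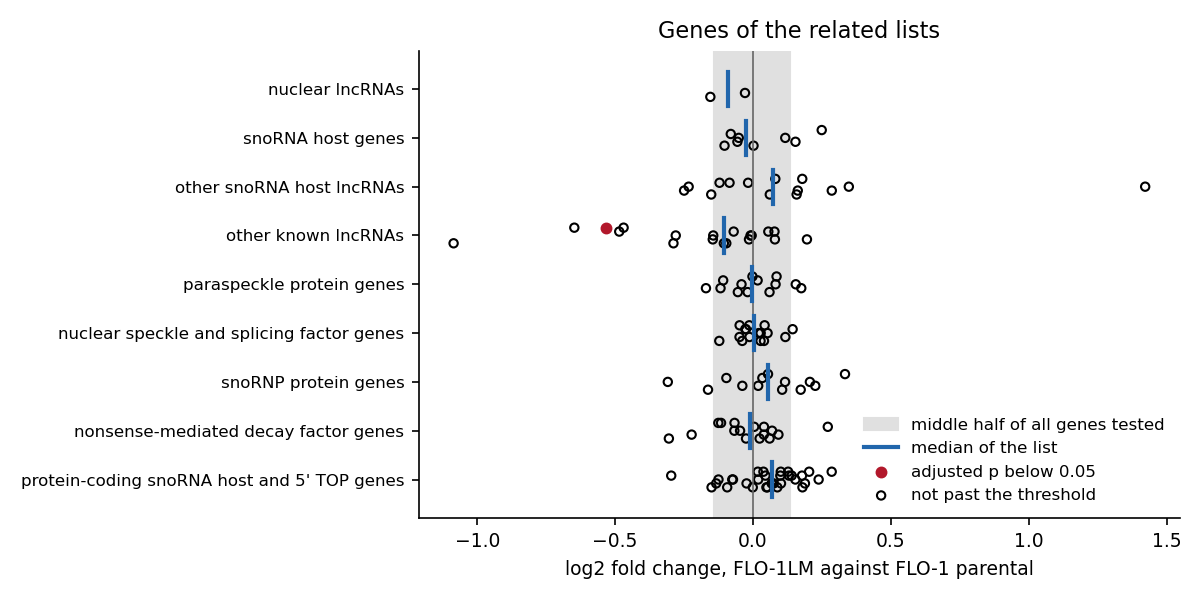
Log2 fold change of the members, in the top rows, and of the tested genes of each related list, FLO-1LM against parental, 1 point per gene, filled where the adjusted p was below 0.05, with a bar at the median of the list and a band from the lower to the upper quartile of all genes tested. *H19* (−0.53) is the single called gene, and *SNHG18* (1.42) lies farthest to the right without being called.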

How the data were processed

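RNAseq of 2 FLO-1LM and 2 FLO-1 parental libraries was analysed, with the line of each library taken from its label and replicates numbered 1 and 2 in accession order. The authors prepared directional libraries from total RNA, converted reads with bcl2fastq 2.17, trimmed adapters with Trimmomatic 0.30, mapped them to GRCh37 and deposited raw read counts per Ensembl gene, without normalization (versions from the submitters' processing notes). The aligner, the counting program, its strand setting, the handling of reads with several matches, and whether RNA was selected for poly(A) are not given in the sources used here.

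From these counts, genes were kept by filterByExpr (minimum count 10, minimum total 15), scaled by TMM and tested with the quasi-likelihood test of edgeR 4.0.16 in R 4.3.3, two-sided, with Benjamini-Hochberg adjustment over all 17143 genes tested and a threshold of 0.05. The standard error was taken as the size of the log2 fold change over √F, and 95% intervals used the t distribution with the degrees of freedom of the fit. The common biological coefficient of variation was 0.0899. Symbols, positions and lengths came from a GENCODE annotation mapped to GRCh37, which is later than the annotation counted on and named 55665 of 63677 identifiers. Start sequences and snoRNA hosts came from RefSeq tables for GRCh38.p14, and coordinates were not moved between builds. The fit was tested on simulated counts before use.

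The members and gene lists were chosen with earlier results of these data known. The text names the 10 members in full, genes that overlap a member on the opposite strand, small RNA genes inside a member, the nearest divergent start within 5000 bases, and up to 3 genes per list, first those called and then those with the highest CPM. Values of 2 genes that this rule names are not reported here. *SNHG18*, the end of a range, was named after its values were seen. Alternatives were DESeq2 1.42.0, edgeR with RLE factors or library totals, other low-count filters, limma 3.58.1 voom with and without TMM, mitochondrial genes or members left out of library sizes, and each library left out.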

Additional observations from a re-analysis of the deposited data

How the results depend on the processing

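With all 4 libraries, 0 members were called under every alternative, and the log2 fold changes of 9 members kept their sign. *GAS5*, near 0 throughout, turned to −0.028 with library totals, −0.0037 with at least 10 counts in every library and −0.031 with limma voom without TMM. *SRSF3* and *EIF4A3* turned to −0.0030 and −0.0069 with library totals and to −0.0028 and −0.0070 with voom without TMM. Genes called numbered 577 without the low-count filter, compared with 382, and 116 to 1052 with 1 library left out. Scaling moved the median of all genes by at most 0.03 on the log2 scale. The cause of these shifts was not tested.

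Each fit without a library takes its spread, pooled across genes, from the 1 pair left whole and assumes that the lone library varies alike. Members called then ran from 0 to 1 (*NEAT1*) and genes opposite, inside or beside a member from 0 to 1 (*SLC3A2*). The log2 fold change of *SNHG3* was −0.30 without FLO-1LM replicate 2 and −0.02 without FLO-1LM replicate 1. Ranges of log2 fold changes that crossed 0 were −0.37 to 0.029 for *NEAT1*, −0.15 to 0.10 for *MALAT1*, −0.11 to 0.11 for *GAS5*, −0.16 to 0.044 for *SNHG5*, −0.12 to 0.54 for *SNHG8*, −0.25 to 0.025 for *SNHG12*, −0.18 to 0.058 for *SNHG15* and −0.0042 to 0.25 for *DANCR*. Among other genes they were −3.77 to 0.27 for *SNORD78*, −0.29 to 0.025 for *SLC3A2*, −0.13 to 1.11 for *PRSS12*, −0.035 to 0.15 for *SNHG16*, −0.011 to 0.18 for *TUG1*, −0.14 to 0.026 for *HNRNPK*, −0.0068 to 0.12 for *SRRM2*, −0.017 to 0.071 for *SRSF3*, −0.0084 to 0.076 for *SNU13*, −0.23 to 0.0041 for *SMG1* and −0.021 to 0.068 for *EIF4A3*.

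No paired analysis was possible because the labels give the lines no shared replicate numbers. The 95% intervals of *SNHG8* and *DANCR* were the widest of the 10, so the changes of both genes were the least precisely measured.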

Other observations

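Of the 78 cytosolic ribosomal protein genes tested, 59.0% were higher in FLO-1LM replicate 2 than in replicate 1, with a median log2 difference of 0.08, and 85.9% were higher in parental replicate 2 than in parental replicate 1, with a median of 0.13. The snoRNA host members stood at 8 of 8 and 5 of 8 in the same comparisons.

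*SNHG19*, a host gene outside the 10 members that was chosen after its values were seen, had 199 and 510 counts in FLO-1LM and 302 and 326 in parental cells, or 8.93, 19.8, 13.7 and 17.0 CPM. The parental libraries lay inside the range of the FLO-1LM libraries, and the log2 fold change between the lines was −0.09 (SE 0.25, adjusted p = 0.937 by edgeR).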
